A study of Danio rerio with 32 samples.

Results

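The response of wild-type zebrafish to dietary protein was measured in the second of 2 RNA sequencing experiments, by setting 4 libraries of EK larvae on a low protein diet (LP) against 3 libraries of EK larvae on a high protein diet (HP). The comparison was chosen by strain, diet and experiment, and holds 7 of the 32 libraries of the series. EK is a wild-type laboratory strain, and each library was made from whole larvae at 20 days post fertilization (dpf). No mutation or drug treatment is given for either group, so diet is the difference that the labels state. The same experiment held 3 libraries on HP and 4 on LP of a pllp mutant line, allele pd1245, that the submitters call adapted. Experiment 1 held EK, pd1116 and pd1245 larvae on both diets, in 18 libraries. Its 3 EK libraries on HP and 3 on LP are compared here. The pd1116 and pd1245 libraries entered only the fit behind its diet test. The make-up of each diet, and the number of larvae, tanks or clutches behind a library, are not given in the sources used here, so p-values measure only the spread between these samples, which may be technical.

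Dietary protein supplies the amino acids that a growing larva builds into muscle, extracellular matrix and blood cells. Fish digest protein with enzymes from the exocrine pancreas and, in the mid-intestine, with lysosome-rich enterocytes that engulf whole protein. Restriction of amino acids is known to slow growth signalling, to alter translation and, when severe, to start the breakdown of muscle protein.

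The 7 EK libraries held 3713048 to 12929536 counts in genes. One library stood apart. HP replicate 2 held 3713048 counts against 9965129 to 12929536 in the other EK libraries, and 19929 genes with at least 1 count against 22331 to 23205. Its 10 most abundant genes took 14.93% of the counts, against 20.85 to 23.91% elsewhere. On the first principal component of the 7 libraries, which held 43.4% of the variance, it scored 76.2 and the others −19.9 to −6.3. After all libraries were thinned to its depth it scored 63.6 against −20.8 to −0.3. It was the highest of the 7 libraries in 30.4% and the lowest in 28.3% of 13328 genes with a mean of at least 2 CPM, a gene's counts scaled to a common library total. The calls and the gene lists are therefore given with and without it. Genes encoded by the mitochondrial genome took 6.25 to 6.80% of counts on HP and 5.199 to 5.73% on LP, and ribosomal protein genes 13.6 to 14.8% across all 7. Levels below are CPM after TMM scaling of library size.

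Few genes passed the test, and most of them were lower on LP. Of 16671 genes tested, 13 differed between the diets at an adjusted p under 0.05, which is 0.078% of those tested; 3 rose on LP and 10 fell, and 10 changed by at least 2-fold. Such genes are called below. Each value comes from edgeR's quasi-likelihood test with Benjamini-Hochberg adjustment, fitted over all 14 libraries of the experiment. In all 13 the libraries of the 2 diets did not overlap, which was also true of 5.02% of all genes tested with LP higher and 4.93% with LP lower. At an unadjusted p under 0.05 stood 877 genes higher on LP (5.26%) and 1033 lower (6.2%), and the median log2 fold change of all genes was −2e-04. The threshold cut through a dense group: a further 22 genes, 6 higher and 16 lower, had adjusted p between 0.0521 and 0.0545, and 72 genes lay under 0.1. Fitting the 7 EK libraries without the adapted line also gave 13 calls, 6 of them shared (PLEK2, lgals1l1, ENSDARG00000117543, DDX21, cst14b.2 and MMP9), and the 7 others had adjusted p of 0.0511 (ABCG1) to 0.156 (npsn). The median SE of a log2 fold change among genes of at least 2 CPM was 0.187.

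**Figure D1:**
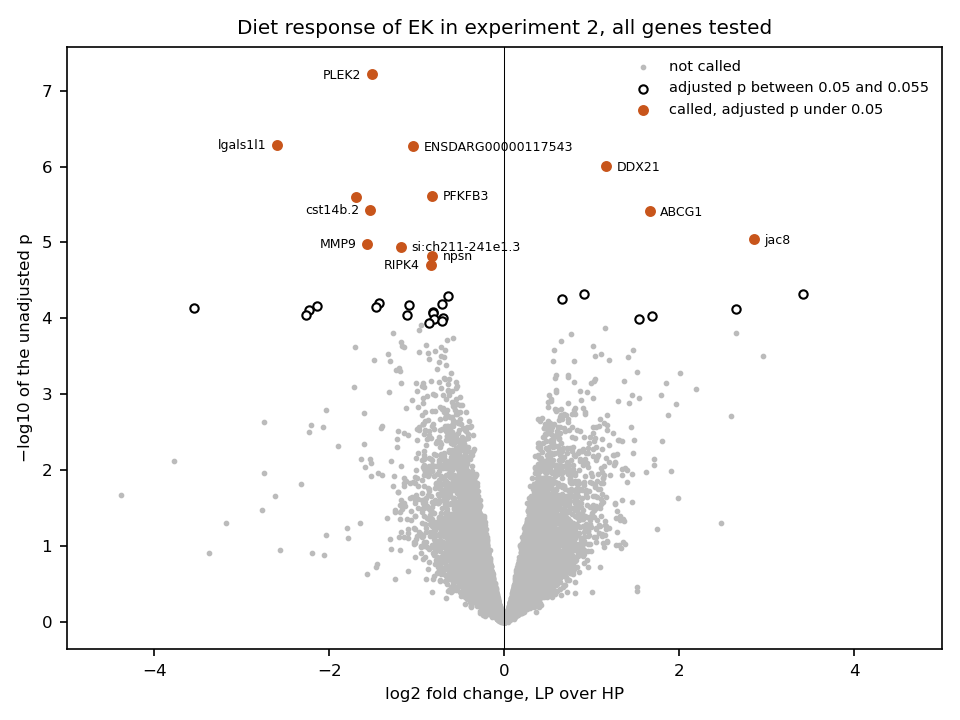
Each point is one of 16671 genes, with the log2 fold change of LP over HP on the horizontal axis and −log10 of the unadjusted p on the vertical axis. The 13 called genes are filled, 12 of them named, and the 22 genes with adjusted p between 0.0521 and 0.0545 are open circles just below them, 16 of them on the side of lower expression on LP.

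PLEK2 and RIPK4 fell on LP. PLEK2 (ENSDARG00000012789), pleckstrin 2, which binds membrane lipids and acts on the actin cytoskeleton, stood at 46.3, 47.6 and 52.8 CPM on HP and at 20.9, 15.7, 14.7 and 17.1 CPM on LP. All 4 LP libraries lay far below the lowest HP library. PLEK2 fell 2.86-fold (log2 fold change −1.51, SE 0.17, adjusted p = 0.00102), the smallest p of all genes, and without HP replicate 2 by as much (−1.53, adjusted p = 0.00555). RIPK4 (ENSDARG00000043211), a kinase that keratinocyte differentiation needs in mice and humans, stood at 14.2, 10.8 and 15.3 CPM on HP and at 7.65, 7.74, 8.16 and 6.97 CPM on LP. The groups did not overlap, and it fell (−0.84, SE 0.15, adjusted p = 0.0252), also without HP replicate 2 (−0.95, adjusted p = 0.00869). This call was the least stable of the 13, being lost without HP replicate 1 (adjusted p = 0.0919) or 3 (0.0930), or without LP replicate 1 (0.0796), 2 (0.0795), 3 (0.0534) or 4 (0.0669).

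ITGB4, col17a1b, krt5 and cldna had values on the same side without passing the test. ITGB4 (ENSDARG00000028507), the integrin beta chain of hemidesmosomes, stood at 136, 189 and 134 CPM on HP and at 93.6, 76.8, 97.4 and 105 CPM on LP (log2 fold change −0.72, adjusted p = 0.0521; −0.54, adjusted p = 0.114 without HP replicate 2). col17a1b (ENSDARG00000079011), a hemidesmosomal collagen, had a log2 fold change of −0.60 with and without that library. krt5 (ENSDARG00000058371), a keratin of basal epidermis, stood at 2365, 3901 and 2286 CPM on HP and at 1727, 1239, 1889 and 1748 CPM on LP. HP replicate 2 was far above the other libraries, and the log2 fold change of krt5 went from −0.79 (adjusted p = 0.0817) to −0.50 (adjusted p = 0.223) without it. cldna (ENSDARG00000069888), a claudin of tight junctions, had a log2 fold change of −0.86 (adjusted p = 0.0545; −0.73 and adjusted p = 0.161 without HP replicate 2). The list of keratinocyte and skin markers, which does not hold ITGB4, was mixed as a whole, and no member on its higher side is named here. Of 32 members tested, 3 stood higher and 6 lower at an unadjusted p under 0.05. None was called, and the median log2 fold change was −0.13. In 8 of the 32 the log2 fold change was positive, up to 0.76. All LP libraries lay above all HP libraries in 3 members and below in 4, against 5.02% and 4.93% of all genes. Without HP replicate 2 there were 5 higher and 9 lower with a median of −0.06, and without HP replicate 1 or 3 the median was −0.23 or −0.05.

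Neutrophil genes were the list with the lowest median. Neutrophils are the first white blood cells to reach damaged tissue, and larval zebrafish neutrophils carry lysozyme and secreted proteases in their granules. Of 19 listed symbols 15 genes were found and 10 were tested, all 10 with a negative log2 fold change and a median of −0.82 (−0.92 without HP replicate 2). Among members with at least 50 counts in every library of a group the median was −0.34. MMP9 and npsn were called, and 8 of the 10 stood lower at an unadjusted p under 0.05, against 6.2% of all genes. The summed level of the 10 genes was 253 to 311 CPM on HP and 172 to 202 CPM on LP. In whole larvae, fewer cells of a type and less RNA per cell cannot be told apart, here and for every cell type below.

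MMP9 (ENSDARG00000042816), the gelatinase of neutrophils that skin cells also make after injury, stood at 46.3, 46.2 and 63.2 CPM on HP and at 18.4, 20.1, 14.5 and 17.1 CPM on LP. The highest LP library lay well below the lowest HP library. MMP9 fell 2.96-fold (log2 fold change −1.57, SE 0.26, adjusted p = 0.0174; −1.64, adjusted p = 0.0349 without HP replicate 2). Its adjusted p rose above 0.05 when HP replicate 3 (0.0768) or LP replicate 1 (0.0596), 3 (0.0589) or 4 (0.0541) was left out. npsn (ENSDARG00000010423), nephrosin, an astacin protease of zebrafish neutrophils, stood at 42.5, 28.4 and 34.5 CPM on HP and at 21.9, 17.8, 21.9 and 18.7 CPM on LP. HP replicate 2 was the lowest HP library and still above every LP library. npsn fell (−0.82, SE 0.14, adjusted p = 0.0209), more clearly without HP replicate 2 (−0.94, adjusted p = 0.00869), and the call was lost, with log2 fold changes of −0.66, −0.84, −0.77 and −0.79, without HP replicate 1 (adjusted p = 0.135) or 3 (0.0618) or LP replicate 2 (0.0884) or 4 (0.0669). lyz (ENSDARG00000057789), lysozyme, stood at 45.7, 34.4 and 40.9 CPM on HP and at 22.03, 19.3, 25.4 and 25.9 CPM on LP, with no overlap (−0.81, adjusted p = 0.0521). The other members ranged from mmp13a, a collagenase, at −2.04 (adjusted p = 0.168) to a log2 fold change of −0.03.

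Inflammatory signals had values in the same direction. il1b (ENSDARG00000098700), the cytokine interleukin 1 beta, stood at 2.85, 1.85 and 2.65 CPM on HP and at 0.740, 0.474, 0.403 and 0.441 CPM on LP. Every LP library was below 1 CPM and every HP library above it, with a log2 fold change of −2.26 (adjusted p = 0.0521). The 1.85 CPM in HP replicate 2, the shallow library, rests on few counts. cxcl8b.1 (ENSDARG00000102299), a chemokine of the CXCL8 family that draws neutrophils in, stood at 32.1, 27.5 and 37.4 CPM on HP and at 12.8, 9.55, 16.8 and 9.26 CPM on LP (−1.43, adjusted p = 0.0521). Its groups did not overlap either. caspb (ENSDARG00000052039), an inflammatory caspase of fish, went from 42.5, 53.1 and 56.1 CPM on HP to 32.6, 26.9, 26.6 and 28.7 CPM on LP (−0.82, adjusted p = 0.0521). Without HP replicate 2, il1b, cxcl8b.1, caspb and lyz were not called either. Of 26 tested members of the list of inflammation and acute phase genes, 1 was called, MMP9, which fell. It was already counted in the neutrophil list, so the 2 lists are not separate sets of genes. At an unadjusted p under 0.05, 8 stood lower (30.8%, against 6.2% of all genes) and 0 higher. The median of the list was −0.29 (−0.40 without HP replicate 2).

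Macrophage, lymphocyte and interferon lists held no called gene (0.078% of all genes tested were called), and their medians were negative. Of 23 macrophage markers tested, 7 stood lower (30.4%, against 6.2% of all genes) and 0 higher at an unadjusted p under 0.05. The median log2 fold change of the list was −0.49 (−0.42 without HP replicate 2, and from −0.51 to −0.33 as each library was left out). Examples are ctss2.1, a lysosomal cathepsin (8.75, 6.93 and 10.4 CPM on HP; 6.00, 4.74, 4.63 and 5.12 CPM on LP; adjusted p = 0.141), and marco, a scavenger receptor (3.05, 5.08 and 3.38 CPM on HP; 2.47, 1.74, 1.71 and 1.76 CPM on LP; adjusted p = 0.225). Both held their groups apart. Summed over the macrophage list, levels were 1665, 1578 and 1581 CPM on HP and 1310, 1388, 1604 and 1527 CPM on LP, so the diets overlapped. In 4 of the 23 the log2 fold change was positive. Of the lymphocyte markers 4 were tested, among them RAG1, which cuts antigen receptor genes in developing lymphocytes, and 2 stood lower at an unadjusted p under 0.05, and 0 did without HP replicate 2. Among 24 interferon response genes tested, 6 stood lower at that threshold (25%, against 6.2% of all genes). The median of the 24 was −0.34 (−0.44 without HP replicate 2), but −0.04 among members with at least 50 counts in every library of a group. In some members HP replicate 1 stood alone. isg15 (ENSDARG00000086374), a ubiquitin-like protein that interferon induces, stood at 29.2 CPM there against 3.23 and 1.65 CPM in the other HP libraries and 0.504 to 3.79 CPM on LP. ifit15 (ENSDARG00000043584), of the interferon-induced IFIT family, likewise stood at 11.8 CPM in HP replicate 1 and at 0.923 CPM or less in the other 6 libraries.

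The list of collagens and fibrillar matrix held 22 members lower at an unadjusted p under 0.05, the largest such number of the 51 lists. Their share was 38.6%, against 6.2% of all genes. It was higher in the shorter lists of neutrophils (80%), goblet cells (50%) and lymphocytes (50%). Collagens are the main load-bearing proteins of skin, bone and tendon, and their making uses much proline and glycine. Of 57 genes of collagens and fibrillar matrix tested, 48 had a negative log2 fold change and 0 stood higher at that threshold. In 12 all LP libraries lay below all HP libraries, which was also true of 4.93% of all genes. None of the 57 was called. The median was −0.32, and −0.33 without HP replicate 2. Summed over the list, levels were 5469, 5315 and 4976 CPM on HP and 3379, 3039, 4382 and 4072 CPM on LP, so that HP replicate 2 lay between the other HP libraries. col1a1a (ENSDARG00000012405), an alpha 1 chain of collagen I, stood at 1249, 1298 and 1139 CPM on HP and at 683, 602, 895 and 820 CPM on LP (log2 fold change −0.71, SE 0.14, adjusted p = 0.0526; −0.67 without HP replicate 2). COL5A1 (ENSDARG00000012593), a chain of collagen V, which controls fibril width, stood at 183, 203 and 140 CPM on HP and at 95.1, 77.9, 124 and 127 CPM on LP (−0.72, adjusted p = 0.0855). Neither gene's groups overlapped. COL11A1 (ENSDARG00000026165) had a log2 fold change of −0.65 (adjusted p = 0.0748). The list of bone, cartilage and teeth was mixed: of 35 members tested, 2 stood higher and 4 lower at an unadjusted p under 0.05. In that list 10 members had a positive log2 fold change, none was called, and the median was −0.17 (−0.10 without HP replicate 2). Outside the collagen list, THBS1 (ENSDARG00000103775), a matrix-bound thrombospondin, stood at 38.2 to 43.9 CPM on HP and at 15.6 to 24.6 CPM on LP (−1.12, adjusted p = 0.0521).

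**Figure D2:**
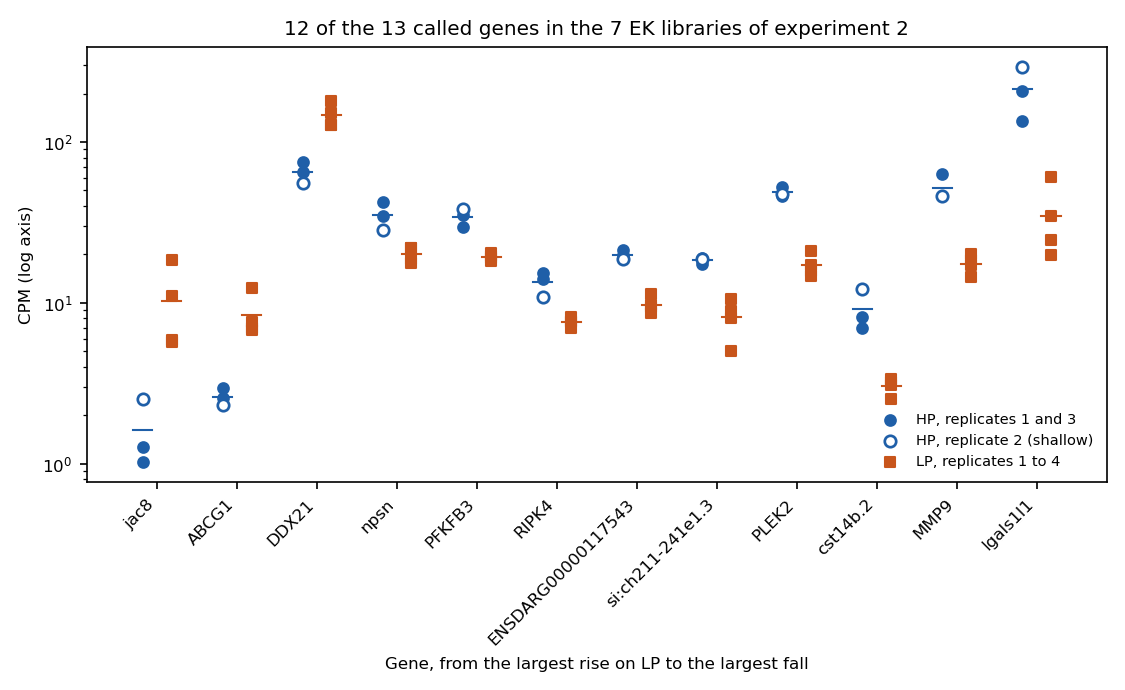
CPM on a log axis is plotted for 12 of the 13 called genes in each of the 7 EK libraries, with HP as circles, LP as squares and short lines at the group means; the open circle is the shallow HP replicate 2. In each gene the 2 diets do not overlap, and HP replicate 2 is the highest HP library in PFKFB3, lgals1l1, cst14b.2 and jac8.

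The steepest fall was in a lectin gene. lgals1l1 (ENSDARG00000088711), a galectin 1-like gene of the family of galactoside-binding lectins, stood at 209, 293 and 135 CPM on HP and at 34.6, 60.6, 24.5 and 19.9 CPM on LP. The HP libraries spread more than 2-fold, and the lowest of them still lay above the highest LP library. It fell 6.05-fold (log2 fold change −2.60, SE 0.34, adjusted p = 0.00302; −2.30, adjusted p = 0.0170 without HP replicate 2) and kept its call when any 1 EK library was left out. cst14b.2 (ENSDARG00000112540), of the cystatin family of protease inhibitors, stood at 7.02, 12.2 and 8.22 CPM on HP and at 3.37, 2.53, 3.22 and 3.09 CPM on LP (−1.54, SE 0.24, adjusted p = 0.00815; −1.32, adjusted p = 0.0349 without HP replicate 2). HP replicate 2 was its highest library, and the fall passed without it. jac8 (ENSDARG00000076958), which encodes a jacalin-like lectin domain, stood at 1.02, 2.54 and 1.28 CPM on HP and at 11.0, 18.6, 5.84 and 5.73 CPM on LP. It rose 7.21-fold (log2 fold change 2.85, SE 0.47, adjusted p = 0.0169; 3.16, adjusted p = 0.0349 without HP replicate 2), and the call was lost without HP replicate 1 (adjusted p = 0.0964) or 3 (0.0823). Its relative jac9 (ENSDARG00000074983) had 0.365 to 1.15 CPM on HP and 2.12 to 12.6 CPM on LP (3.41, adjusted p = 0.0521). These genes belong to families with close copies, and the deposited counts were fractional in part: they were whole in 3 of 7 libraries for lgals1l1, 2 for jac8 and 0 for cst14b.2. Whether reads were shared between copies is not given in the sources used here, so these levels are uncertain.

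DDX21 and ABCG1 rose on LP and PFKFB3 fell. DDX21 (ENSDARG00000063626), a nucleolar RNA helicase of ribosomal RNA processing, stood at 75.1, 55.9 and 65.1 CPM on HP and at 151, 179, 128 and 128 CPM on LP. It rose 2.24-fold (log2 fold change 1.16, SE 0.16, adjusted p = 0.00415; 1.06, adjusted p = 0.0181 without HP replicate 2), with no overlap and with the call kept when any 1 EK library was left out. RSL24D1 (ENSDARG00000040439), an assembly factor of the large ribosomal subunit, had 366 to 408 CPM on HP and 508 to 714 CPM on LP (0.66, adjusted p = 0.0521). The 92 tested genes of ribosome biogenesis had values on both sides: DDX21 alone was called, 10 stood higher and 8 lower at an unadjusted p under 0.05, with a median of 0.04 (−0.05 without HP replicate 2 and 0.21 without HP replicate 3), and 79 cytosolic ribosomal protein genes had a median of 0.07 (0.02 without HP replicate 2, 0.12 without HP replicate 1 and 0.13 without HP replicate 3). ABCG1 (ENSDARG00000063475), a transporter that moves cholesterol out of cells, stood at 2.95, 2.31 and 2.56 CPM on HP and at 6.74, 12.3, 7.56 and 6.97 CPM on LP. It rose 3.17-fold (1.66, SE 0.26, adjusted p = 0.00815; 1.61, adjusted p = 0.0349 without HP replicate 2), and the call was lost without HP replicate 3 (adjusted p = 0.0618). PFKFB3 (ENSDARG00000001953), whose product makes the activator of phosphofructokinase, stood at 29.8, 38.1 and 35.3 CPM on HP and at 19.6, 18.1, 20.6 and 19.1 CPM on LP. It fell 1.77-fold (−0.83, SE 0.12, adjusted p = 0.00696; −0.76, adjusted p = 0.0170 without HP replicate 2), with little spread among the LP libraries. Of 47 genes of glucose uptake and metabolism tested it was the only one called. The list was mixed: 5 stood higher (10.6%) and 3 lower (6.38%) at an unadjusted p under 0.05, against 5.26% and 6.2% of all genes. Its median was −0.04 (0.005 without HP replicate 2). SLC16A3 (ENSDARG00000045051), a lactate exporter, stood at 26.1 to 28.4 CPM on HP and at 15.7 to 19.5 CPM on LP. Its log2 fold change was −0.65 (adjusted p = 0.0521, and 0.0464 without HP replicate 2).

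A further 2 called genes carry no descriptive name. ENSDARG00000117543, a long intergenic noncoding RNA in the gene table, stood at 19.7, 18.7 and 21.3 CPM on HP and at 9.46, 8.61, 11.3 and 9.70 CPM on LP. It fell 2.05-fold (log2 fold change −1.04, SE 0.14, adjusted p = 0.00302), with a narrow spread on both diets, and kept its call when any 1 EK library was left out. si:ch211-241e1.3 (ENSDARG00000022615) stood at 19.03, 18.7 and 17.5 CPM on HP and at 8.96, 5.05, 8.06 and 10.5 CPM on LP (−1.18, SE 0.20, adjusted p = 0.0176). It was the 1 call lost without HP replicate 2 (−1.17, adjusted p = 0.0517), and it was also lost without HP replicate 1 (0.0809) or 3 (0.0618) or LP replicate 3 (0.0534).

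Digestive enzymes of the exocrine pancreas were the list with the highest median among lists of at least 10 tested genes. Of 25 tested, 12 stood higher and 0 lower at an unadjusted p under 0.05 (5.26% and 6.2% of all genes), 22 had a positive log2 fold change, and the median was 0.45 (0.47 without HP replicate 2). None was called, and in none did the diets separate completely. ela3l (ENSDARG00000007276), an elastase, stood at 1154, 1167 and 1891 CPM on HP and at 1700, 2169, 2822 and 2645 CPM on LP (0.73, adjusted p = 0.159). prss1 (ENSDARG00000042993), a trypsin, stood at 2650, 2760 and 4733 CPM on HP and at 4322, 4904, 5964 and 6111 CPM on LP (0.66, adjusted p = 0.178). In both, HP replicate 3 overlapped the LP range while HP replicates 1 and 2 lay below it. The summed level of the list was 21150, 29220 and 38370 CPM on HP and 33290, 37120, 46570 and 47000 CPM on LP, and without HP replicate 1 the median dropped to 0.24.

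Intestinal genes for the uptake of whole protein had a median log2 fold change near 0. Of 30 tested genes of lysosome-rich enterocytes, 0 stood higher and 1 lower at an unadjusted p under 0.05, with a median of 0.01 (−0.03 without HP replicate 2). The 1 lower member was DAB2 (ENSDARG00000053091), an endocytic adaptor of these cells, with a log2 fold change of −0.34 (adjusted p = 0.367; −0.22 without HP replicate 2), which was called in EK of experiment 1 (−0.57, adjusted p = 0.0444). CUBN (ENSDARG00000087013), the protein receptor cubilin of these cells, stood at 22.1, 17.3 and 19.6 CPM on HP and at 9.46, 5.13, 20.4 and 26.2 CPM on LP, so LP replicates 1 and 2 were low and 3 and 4 were not. pllp (ENSDARG00000062756), which is mutated in the adapted line, stood at 31.6, 37.2 and 29.6 CPM on HP and at 38.3, 26.5, 24.6 and 33.3 CPM on LP (log2 fold change −0.08, SE 0.16, adjusted p = 0.883). Its groups overlapped throughout. Among 35 genes of lipid-absorbing anterior enterocytes, 7 stood higher (20%) and 2 lower (5.71%) at an unadjusted p under 0.05. Of all genes, 5.26% stood higher and 6.2% lower at that threshold. Without HP replicate 2 there were 7 and 3, and the median of the list was 0.08 (0.12 without that library). chia.2 (ENSDARG00000099185), an acidic chitinase, stood at 1242, 1651 and 1369 CPM on HP and at 1965, 2132, 2374 and 2442 CPM on LP, without overlap (0.65, adjusted p = 0.0748; 0.77, adjusted p = 0.0565 without HP replicate 2). chia.3 (ENSDARG00000009612), a chitinase of the same list, had 68.2, 56.8 and 76.7 CPM on HP and 35.1, 24.3, 31.4 and 71.1 CPM on LP (−0.74, adjusted p = 0.259; −0.84 without HP replicate 2). Mucus-secreting goblet cells had 6 tested markers, of which 3 stood lower (50%, against 6.2% of all genes) and 0 higher. Without HP replicate 2 there were 2 lower and 1 higher. Among the 3 was muc5.2 (ENSDARG00000058556), a gel-forming mucin, at 15.9, 27.01 and 11.0 CPM on HP and 7.05 to 7.90 CPM on LP (−1.18, adjusted p = 0.123).

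**Figure D3:**
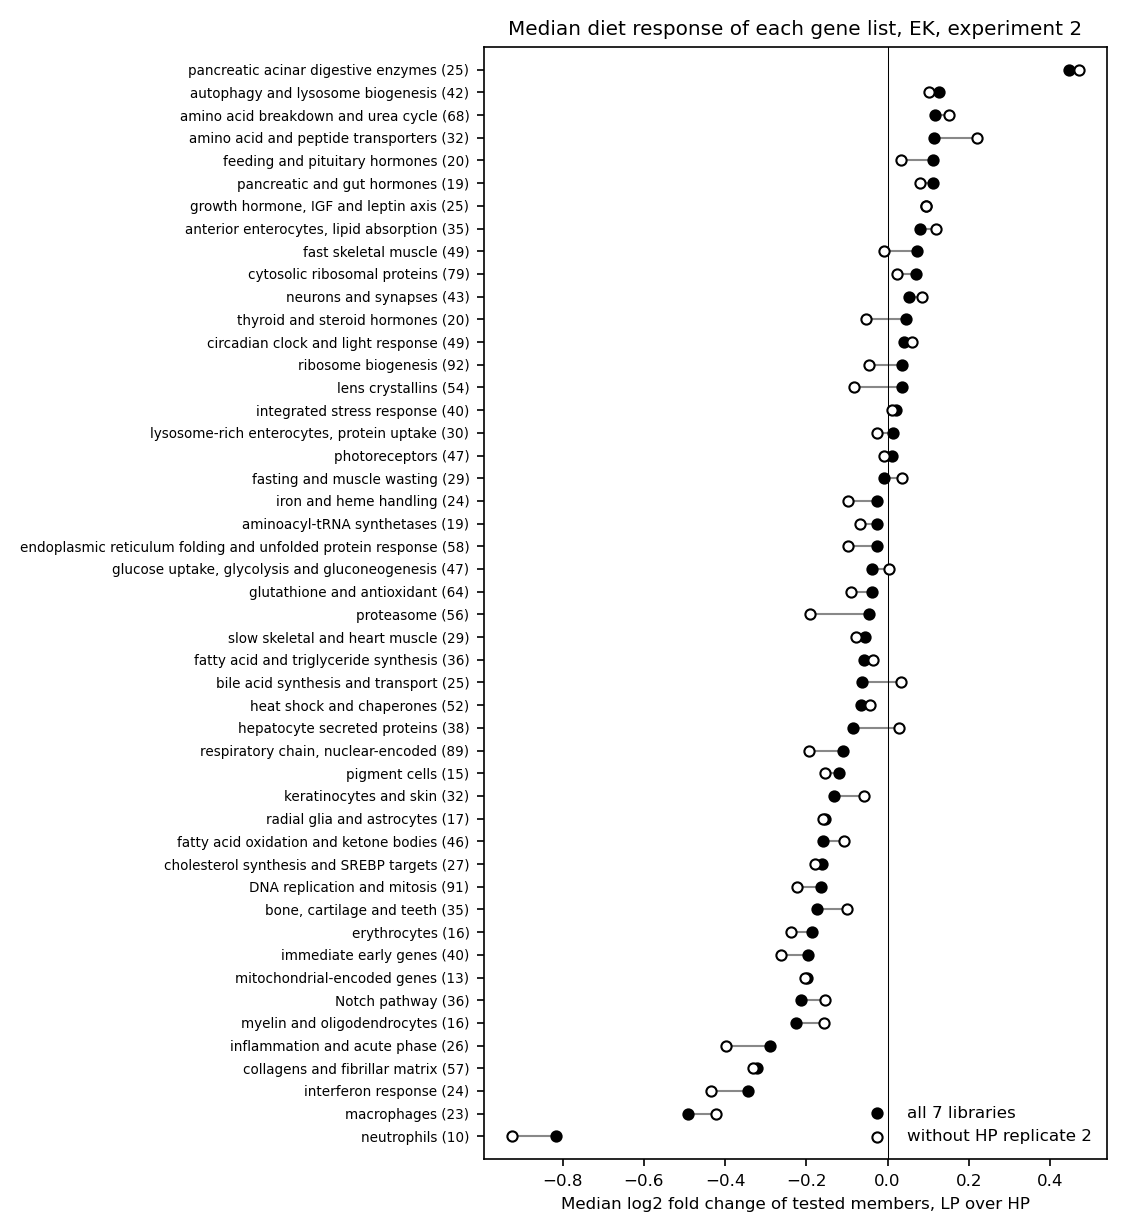
The median log2 fold change of LP over HP is shown for each gene list with at least 10 tested members, whose number stands in brackets, with all 7 EK libraries (filled) and without HP replicate 2 (open). Neutrophils (−0.82), macrophages (−0.49), the interferon response (−0.34) and collagens (−0.32) lie at one end and pancreatic digestive enzymes (0.45) at the other. Leaving out HP replicate 2 moves the proteasome (−0.05 to −0.19) more than any of these.

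Genes of fasting and muscle breakdown were split, and the highest values came from a single LP library. Of 29 tested, 5 stood higher and 5 lower at an unadjusted p under 0.05 (3 and 5 without HP replicate 2), and the median was −0.01 (0.04 without it). Each share was 17.2%, against 5.26% of all genes higher and 6.2% lower. Members ranged from −1.01 to 1.115, with 15 negative and 14 positive. The genes named next all stood higher on LP, and no member on the lower side is named. Not all of them belong to this list: LPL, whose value lies above that range, does not. FBXO32 (ENSDARG00000040277), a ubiquitin ligase subunit that muscle makes during wasting, stood at 8.65, 9.93 and 10.2 CPM on HP and at 15.13, 36.3, 13.5 and 17.7 CPM on LP (1.11, adjusted p = 0.201). LP replicate 2 was more than double the other LP libraries. trim63a (ENSDARG00000028027), another muscle ubiquitin ligase, stood at 127 CPM in LP replicate 2 against 58.0 to 74.2 CPM in the other LP libraries and 37.4 to 54.0 CPM on HP. igfbp1b (ENSDARG00000038666), a binding protein that restrains insulin-like growth factors, stood at 139 CPM there against 37.5 to 55.8 CPM in the other LP libraries. eif4ebp3 (ENSDARG00000054916), an inhibitor of cap-dependent translation, reached 130 CPM in LP replicate 2 against 50.2 to 60.2 CPM on LP otherwise and 35.7 to 42.0 CPM on HP. LPL (ENSDARG00000087697), lipoprotein lipase, followed the same order, with 125 CPM in LP replicate 2, 62.2 to 67.4 CPM in the other LP libraries and 23.4 to 50.6 CPM in the HP libraries (a log2 difference of 1.198, adjusted p = 0.0869; 1.52, adjusted p = 0.0565 without HP replicate 2). The median of 42 genes of autophagy and lysosome biogenesis was 0.13 and dropped to 0.02 when LP replicate 2 was left out.

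Lists of cell division, respiration and protein turnover held no called gene, where 0.078% of all genes tested were called. At an unadjusted p under 0.05, 6.2% of all genes stood lower. The share was 9.89% for DNA replication and mitosis, 14.6% for the nuclear-encoded respiratory chain, 10.7% for the proteasome and 32.5% for immediate early genes. Of 91 tested genes of DNA replication and mitosis, 0 stood higher and 9 lower at an unadjusted p under 0.05 (median −0.16), and without HP replicate 2 there were 0 and 21 (median −0.22); without HP replicate 3 the median was −0.03. MCM4, a subunit of the replicative helicase, had a log2 fold change of −0.54 (adjusted p = 0.171). The 89 nuclear-encoded genes of the respiratory chain had 0 higher and 13 lower (median −0.11, −0.19 without HP replicate 2 and −0.03 without HP replicate 3). The 56 proteasome genes had 3 higher and 6 lower (median −0.05) with all libraries and 1 higher and 16 lower (median −0.19) without HP replicate 2; without HP replicate 3 the median was 0.17. HP replicate 2 stood lowest of the 7 on the proteasome list, at a median deviation of −0.37 on the log2 scale, and HP replicate 3 highest at 0.36. Immediate early genes, transcription factors and regulators that cells switch on within minutes of a stimulus or of handling, had 0 higher and 13 lower among 40 tested (median −0.20, −0.26 without HP replicate 2, −0.10 without HP replicate 3 and −0.36 without LP replicate 3). FOSL1, a subunit of the AP-1 factor, stood at 94.5, 51.7 and 98.0 CPM on HP and at 46.6, 33.2, 49.7 and 35.6 CPM on LP (−0.99, adjusted p = 0.201). The median deviation of the list from the 7-library mean was 0.21, −0.08 and 0.31 on HP and −0.12, −0.20, 0.06 and −0.18 on LP, so the diets overlapped. Whether handling or stress had a part in the inflammation and neutrophil results was not tested.

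**Figure D4:**
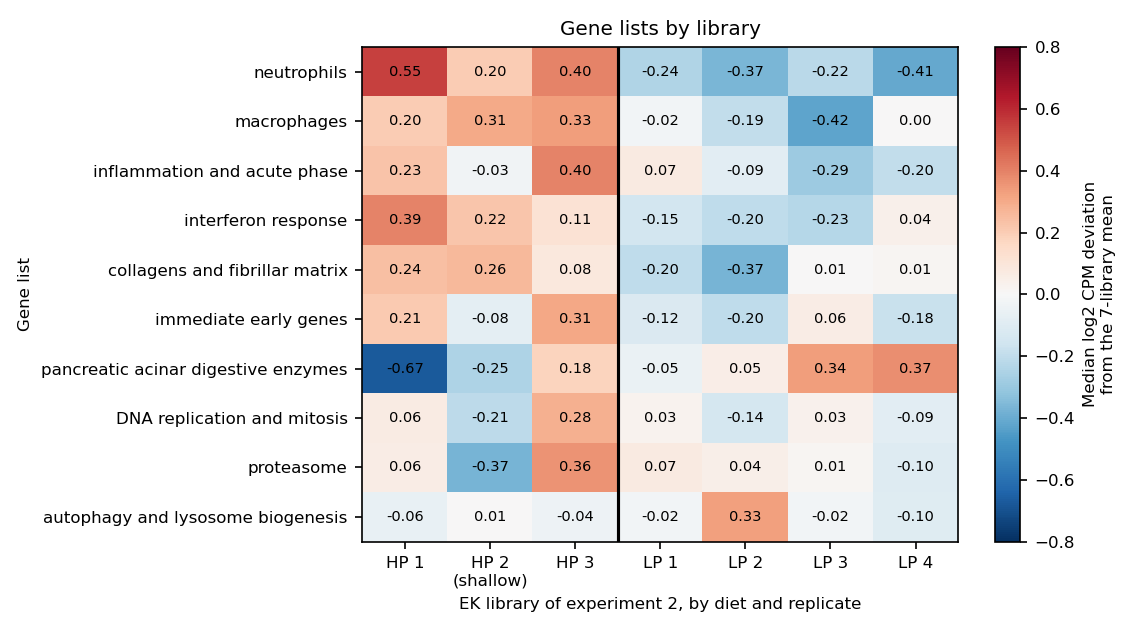
For 10 gene lists and the 7 EK libraries, each cell gives the median over tested members of log2 CPM minus that gene's mean over the 7 libraries, in red where above it and in blue where below. Neutrophil genes are above in all 3 HP libraries (0.20 to 0.55) and below in all 4 LP libraries (−0.41 to −0.22), pancreatic enzymes are lowest in HP replicate 1 (−0.67), the proteasome is lowest in HP replicate 2 (−0.37), and autophagy stands out in LP replicate 2 (0.33).

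No gene of amino acid breakdown or transport was called, where 0.078% of all genes tested were. Of 68 genes of amino acid breakdown tested, 6 stood higher (8.82%) and 1 lower (1.47%) at an unadjusted p under 0.05 (median 0.12). The shares of all genes were 5.26% and 6.2%. Without HP replicate 2 there were 5 and 3 (median 0.15), without HP replicate 1 or 3 the median was 0.07, and without LP replicate 2 it was 0.03. Of 32 amino acid and peptide transporters tested, 4 stood higher (12.5%) and 2 lower (6.25%). Their median was 0.11 (0.22 without HP replicate 2 and −0.08 without HP replicate 3). BHMT (ENSDARG00000013430), which remethylates homocysteine to methionine, stood at 134, 115 and 110 CPM on HP and at 148, 189, 158 and 142 CPM on LP (0.41, adjusted p = 0.219). SLC7A9 (ENSDARG00000005894), a cystine transporter subunit of gut and kidney, stood at 2.77 to 3.36 CPM on HP and at 5.18 to 7.497 CPM on LP (1.03, adjusted p = 0.0855). Neither gene's groups overlapped. Among hormones, lepb (ENSDARG00000045548), a leptin, had 1.85 to 3.93 CPM on HP and 0.101 to 1.15 CPM on LP (−2.23, adjusted p = 0.188), and gnrh2 (ENSDARG00000044754), a midbrain gonadotropin-releasing hormone, had 1.62 to 2.56 CPM on HP and 5.38 to 9.16 CPM on LP (1.68, adjusted p = 0.0521). Both kept their groups apart at low levels. TTR (ENSDARG00000037191), transthyretin, a thyroid hormone carrier, had 12.2 to 14.4 CPM on HP and 14.6 to 40.8 CPM on LP (0.83, adjusted p = 0.312), and was called in EK of experiment 1 (2.03, adjusted p = 0.0117).

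Without HP replicate 2, 1 call was lost and 4 were gained. With 2 HP libraries left, 16 genes were called, of which 12 were among the 13. The 4 added all fell: ANKRD22 (ENSDARG00000002298; log2 fold change −1.07, adjusted p = 0.0123), si:ch211-117l17.6 (ENSDARG00000102059; −1.08, 0.0330), SLC16A3 (−0.68, 0.0464) and ENSDARG00000114451 (−2.43, 0.0349). ANKRD22 stood at 24.5 CPM in HP replicate 2 against 50.3 and 53.4 CPM in the other HP libraries, and at 22.6 to 27.1 CPM on LP. In that gene HP replicate 2 thus lay within the LP range. Over 13328 genes of at least 2 CPM, the median absolute change of the log2 fold change was 0.103, 57 genes (0.428%) moved by more than 0.5, and 80.0% kept their sign (10658 genes). Of the 1910 genes at an unadjusted p under 0.05, 1909 had the same sign without that library and 1146 were still under 0.05. These genes were chosen by a test that used the remaining libraries too, so a kept sign was likely in advance.

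**Figure D5:**
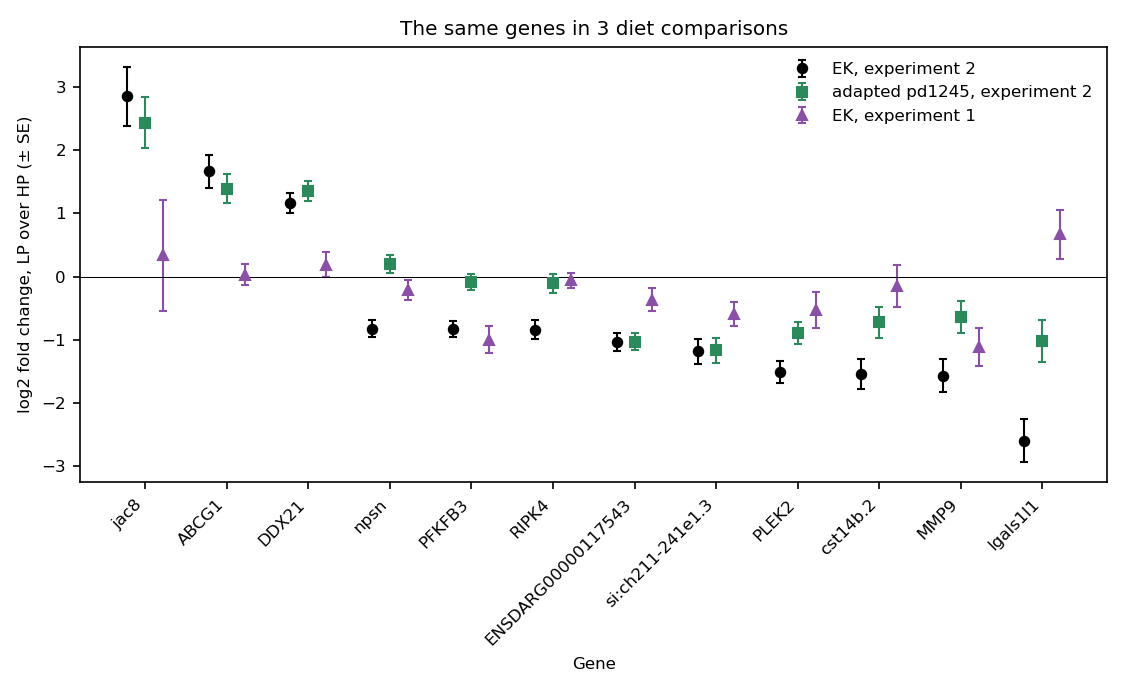
The log2 fold change of LP over HP with its SE is shown for 12 of the 13 called genes in EK of experiment 2 (circles), the adapted pd1245 line of experiment 2 (squares) and EK of experiment 1 (triangles). DDX21 lies at 1.16, 1.36 and 0.19 in that order and lgals1l1 at −2.60, −1.02 and 0.67.

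The adapted pd1245 line of the same experiment shared part of the response. It had 314 called genes (1.88% of those tested), and 7 of the 13 genes called in EK were among them in the same direction, with none opposite. The count of 314 was 60 and 77 without its HP replicates 1 and 3, 650 without LP replicate 1, and 95, 119 and 112 without LP replicates 2 to 4. Of the 13 genes, 12 had the same sign in that line, 10 of them at an unadjusted p under 0.05. Of its 314 calls, 294 (93.6%) had the same sign in EK, against 64.2% of all genes. Among the 7 were PLEK2 (log2 fold change −0.90 in that line, adjusted p = 0.0142), DDX21 (1.36, adjusted p = 7.62e-04), ABCG1 (1.39, adjusted p = 0.00505), jac8 (2.44, adjusted p = 0.00562), si:ch211-241e1.3 (−1.17, adjusted p = 0.00685) and ENSDARG00000117543 (−1.03, adjusted p = 0.00143). PFKFB3 (−0.08), npsn (0.20) and RIPK4 (−0.10) had values near 0 there. A direct test of the difference between the lines called 0 of 16671 genes with edgeR, with 894 at an unadjusted p under 0.05, and DESeq2 and limma-voom called 1 each, and the genes named next did not pass: npsn differed by 1.02 (SE 0.20, unadjusted p = 7.04e-05, adjusted p = 0.753) and PFKFB3 by 0.74 (SE 0.17, adjusted p = 0.753). FBXO32 was called in the adapted line (3.25, adjusted p = 7.62e-04) and not in EK, with a difference of 2.14 (SE 0.52, adjusted p = 0.753). The fasting list had a median of 0.44 in the adapted line and −0.01 in EK. The inflammation list had 0.01 in the adapted line (4 lower and 5 higher at an unadjusted p under 0.05) and −0.29 in EK. In the same order, medians were 0.16 and −0.20 for immediate early genes and 0.09 and 0.45 for pancreatic enzymes. Neutrophils (−0.31 and −0.82), macrophages (−0.15 and −0.49) and collagens (−0.31 and −0.32) had negative medians in both lines. These differences were not tested for the lists.

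The same strain and diets in experiment 1 gave 1 called gene in common. Library kit, sequencing and counting differed between the experiments and cannot be told apart from the experiment, so only diet responses are compared. There 35 of 22742 genes were called (0.154%), in a fit over all 18 libraries of experiment 1, pd1116 and pd1245 included. Of the 35, 32 were tested in both experiments, and 1 gene was called in both. Fitting only the EK libraries of experiment 1 gave 83 calls, with 24 of the 35 kept. That count of 35 was 2, 3 and 76 without HP replicates 1, 2 and 3 of experiment 1, and 1 without LP replicate 2 or LP replicate 3. The overlap is 1 of 13 calls of experiment 2 and 1 of 32 of experiment 1. Of the 13 genes, 12 had the same sign in experiment 1, 4 of them at an unadjusted p under 0.05. Of all genes tested in both experiments, 55.3% had the same sign. Of the 32 calls of experiment 1 tested in both, 25 (78.1%) had the same sign in experiment 2. PFKFB3 (−0.996, adjusted p = 0.0823) and MMP9 (−1.11, adjusted p = 0.207) had values of similar size in experiment 1, whereas DDX21 (0.19), ABCG1 (0.03) and RIPK4 (−0.06) were near 0. Among the lists, collagens had medians of −0.32 and −0.29 in experiments 2 and 1, inflammation of −0.29 and −0.26, neutrophils of −0.82 and −0.41 and macrophages of −0.49 and −0.12. Among other lists, the sign changed for pancreatic enzymes (0.45 and −0.15), interferon response (−0.34 and 0.18) and DNA replication and mitosis (−0.16 and 0.09). It also changed for the nuclear-encoded respiratory chain (−0.11 and 0.06) and immediate early genes (−0.20 and 0.01). Keratinocyte and skin markers (−0.13 and 0.12), fast skeletal muscle (0.07 and −0.31) and lens crystallins (0.035 and −0.21) changed sign too.

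Tested directly, the diet response of EK differed between the experiments in 2 of 21316 genes (0.00938%). lgals1l1 fell in experiment 2 but not in experiment 1, where it stood on HP at 10.2 ± 0.392 CPM and on LP at 16.3 ± 7.96 CPM (SD, n = 3; log2 fold change 0.67, adjusted p = 0.754); the responses differed by −3.27 (SE 0.48, adjusted p = 0.0346). myha (ENSDARG00000095930), a myosin heavy chain, fell in experiment 1 from 28.8 ± 13.1 to 6.16 ± 1.59 CPM (SD, n = 3; −2.22, adjusted p = 0.00178). In experiment 2 it stood at 96.3, 56.6 and 74.0 CPM on HP and at 79.2, 83.1, 94.7 and 93.7 CPM on LP, with overlap (0.21, adjusted p = 0.733), and the responses differed by 2.42 (SE 0.37, adjusted p = 0.0346). The count of 2 was 0 without HP replicate 2 or LP replicate 1, 3 or 4 of experiment 2 and without HP replicate 1 or 2 or LP replicate 3 of experiment 1. It was 1 without HP replicate 3 or LP replicate 2 of experiment 2 or LP replicate 2 of experiment 1, 6 without LP replicate 1 of experiment 1, and 12 without HP replicate 1 of experiment 2.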

How the data were processed

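The analysis started from the authors' gene counts. In experiment 2 the authors' table holds expected counts, partly fractional for a reason not given in the sources used here; 78.3 to 84.9% of values above 0 in the EK libraries were whole within 0.005, and all were rounded. Experiment 1 holds raw counts, as deposited by the authors. Per the submitters' processing notes, reads of experiment 2 (stranded, with molecular identifiers, single-end, 94 bp) were processed with fastp 0.24.0, STAR 2.7.11 and featureCounts of Subread 2.1.1 on GRCz11; how identifiers were used is not given. A deposited table of transformed values was not used.

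Experiment 2 was fitted in edgeR 4.0.16 (R 4.3.3) with TMM scaling, filterByExpr, 1 coefficient per group, the quasi-likelihood F test (2-sided), Benjamini-Hochberg adjustment and a threshold of 0.05. The biological coefficient of variation was 16.04%. SE is the log2 fold change divided by the square root of F. Rows that name no gene held 14.62 to 16.76% of experiment 1 and were left out, as were 92 spike-in rows of experiment 2. The fit was also run on counts simulated from its own model, which cannot show whether that model suits these libraries. The diet test of experiment 1 was fitted in the same way over its 18 libraries. The test between experiments used the 13 EK libraries over 21316 genes.

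The members compared and all 51 gene lists (1626 of 1875 symbols matched) were chosen with earlier results of these data known. Named were pllp, up to 12 called genes per direction, up to 10 further called genes by p, and of each list up to 4 called or else 2 uncalled members of smallest p, and genes past a test of a difference; other uncalled genes were picked after their values were seen. Of the called genes, 1 is not reported here. Alternatives were other scalings, other filters, a replicate block, DESeq2 1.42.0, limma-voom (limma 3.58.1), only the groups compared, thinning, leaving out each library and, added after seeing the data, an adjusted p under 0.1.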

Additional observations from a re-analysis of the deposited data

Results flagged for a closer look

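In 8 of 125 named genes, 1 of the 4 LP libraries lay farther from its neighbours than Dixon's 95% limit, which chance gives in about 1 in 20 groups; over 13328 genes of at least 2 CPM the share was 5.48% (731 genes), and LP replicate 2 was the far library in 296 of them, against 130, 147 and 158 for LP replicates 1, 3 and 4. LP replicate 2 stood apart in ABCG1 (12.3 CPM), col5a3b, a collagen V chain (3.71 CPM), eif4ebp3 (130.3 CPM), LPL (124.8 CPM), ATG101, an autophagy initiation subunit (25.98 CPM), and PSME4, a proteasome activator (21.4 CPM). In foxa3, a factor of gut and liver, LP replicate 1 stood apart at 10.5 CPM, and in her4.1, a Notch target, LP replicate 4 at 7.41 CPM.

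The diet response of EK differed between experiments 2 and 1 for lgals1l1 (by −3.27 on the log2 scale, adjusted p = 0.0346) and myha (by 2.42, adjusted p = 0.0346), in edgeR's quasi-likelihood test.

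Spike-in rows, outside the gene comparison, held 41, 41 and 61 counts in HP replicates 1 to 3 and 57, 30, 34 and 39 in LP replicates 1 to 4. Whether spike-in RNA was added is not given in the sources used here.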

How the results depend on the processing

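The 13 calls of EK in experiment 2 were 13 with RLE factors and 16 with upper quartile scaling or a filter of 50 counts, and all 13 genes remained in each. The count was 93 without a filter, 149 with DESeq2, 73 with limma-voom, 34 after thinning and 72 at an adjusted p under 0.1. Leaving out 1 library gave 11 to 16, with 7 to 12 of the 13 kept. Fitting only these 2 groups gave 13 calls, 6 of them shared; RIPK4 was also lost after thinning (adjusted p = 0.165). Of the values of named genes under the alternatives, 1792 stayed on the same side of the threshold, 149 newly passed and 31 no longer passed. In 0 did the sign reverse with a call before or after. An uncalled value that changed sign by a shift under 1 SE counts among the 1792.

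The labels do not say that equal replicate numbers share a tank, clutch or day. Deviations matched by replicate number correlated at 0.024, 0.019 and −0.085. With so few libraries, and HP replicate 2 apart from the others, these values cannot exclude pairing. With a replicate block 28 genes were called, 12 of the 13 kept (RIPK4 lost, adjusted p = 0.0811); the count was 19 in experiment 1 and 1 for the test between experiments.

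The test between lines gave 1 with DESeq2, 1 with limma-voom and 0 to 1 as each library was left out (1 without EK LP replicate 2 or adapted LP replicate 1). The test between experiments gave 1 with RLE factors, 41 without a filter, 34 with DESeq2, 4 with limma-voom, 6 at an adjusted p under 0.1 and 0 to 12 as each library was left out. Experiment 1 gave 57 without a filter, 128 with DESeq2, 523 with limma-voom, 83 with only the groups compared, 67 at an adjusted p under 0.1 and 1 to 76 as each library was left out. The adapted line gave 550, 745, 1011, 702 and 1007 under the same settings and 60 to 650 as each library was left out. The cause of these shifts was not tested. Counts in HP replicate 2 limit what low genes can show: a gene at 2 CPM has under 10 counts there.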
